A study of Mus musculus with 10 samples.

Results

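The 5 genes described here, Myl7, Myl4, Sln, Bmp10 and Dkk3, are widely used to recognize atrial heart muscle cells. They were taken by symbol from a table of 24537 genes measured by RNA sequencing in 10 mouse hearts. All 5 were in the table, and they had been picked in part because their levels vary between single libraries of these data. They were chosen by symbol and selected on normalized counts of these same libraries, so the levels by library are given as a description and carry no test.

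Atrial and ventricular cardiomyocytes share most of their contractile machinery but use different versions of several proteins. Myl7 and Myl4 encode the atrial regulatory and essential myosin light chains, whose ventricular counterparts are Myl2 and Myl3. Sln encodes sarcolipin, a small membrane protein that inhibits the calcium pump SERCA and is found mainly in atrial muscle, while its relative phospholamban (Pln) prevails in the ventricle. Bmp10 encodes a secreted ligand of the bone morphogenetic protein family that is made by right atrial myocytes after birth. Dkk3 encodes a secreted glycoprotein of the dickkopf family, which is enriched in atria but is also made by other cell types.

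The hearts came from 5 control mice and 5 iSOD2 mice, all 6 weeks old. Every mouse was heterozygous for a reverse tetracycline transactivator (rtTA2) driven by the Rosa26 promoter, which is active in most cell types. The genotype was Rosa26-rtTA2+/-;TRE-SOD2-shRNA-/- in controls and Rosa26-rtTA2+/-;TRE-SOD2-shRNA+/- in iSOD2 mice, where the doxycycline-responsive hairpin against Sod2 sits at the Col1a1 locus. Dams of both groups ate doxycycline chow from embryonic day 0.5 until birth, so all 10 mice were exposed in utero and none afterward. Controls were 3 males and 2 females, iSOD2 mice were 2 males and 3 females, and each genotype held 2 mice of litter A and 3 of litter B. In litter A the controls were 2 males and the iSOD2 mice 1 male and 1 female, so it had no female control. In litter B each genotype held 1 male and 2 females. RNA was taken from heart tissue cut in transverse sections, and the methods state that the region taken did not differ between mice. Each mouse carries its genotype and a number, 1, 2, 3, 4 and 6 for controls and 5, 7, 8, 9 and 10 for iSOD2.

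Libraries held 16.4 to 24.3 units of 1000000 counts over genes (median 20.9), and iSOD2 10 held 21.1 such units. Sod2, the gene that the hairpin had targeted before birth, ranged over 9562 to 11019 normalized counts in the control group and 10116 to 11305 in the iSOD2 group. A normalized count is a count divided by the library's size factor, which puts the libraries on 1 scale. The ventricular light chain gene Myl2 was abundant in every library, at 121839 to 151378 normalized counts, while Hey2, another ventricular marker, had 91.9 to 132. The atrial genes Myl7 and Sln were at most 5.87 and 0.988 normalized counts in 9 of the 10 libraries. In the same 9 libraries Myl4 had 17.6 to 61.1, and the atrial natriuretic peptide gene Nppa 498 to 7592.

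Promoter sequences are shown for members, 2 of which share a pattern across libraries set out later, and for Mybphl, another atrial gene with that pattern. Myl7 (NM_022879, 7 exons) lies on the minus strand at chr11:5896637-5898782 and Myl4 (NM_010858, 9 exons) on the plus strand at chr11:104550663-104587219. Sln (NM_025540, 2 exons) lies at chr9:53850251-53853849 and Bmp10 (NM_009756, 2 exons) at chr6:87428994-87434512, both on the plus strand. Dkk3 (NM_015814, 8 exons) lies on the minus strand at chr7:112116019-112159057. All positions are on GRCm38 (mm10). The 250 bases before the annotated start are given 5′ to 3′ on the gene's own strand from RefSeq, for the 3 members that matched (Myl7, Myl4 and Bmp10) and for Mybphl, which encodes an atrial myosin-binding protein. Capitals mark matches on either strand to 5 motifs of cardiac transcription factors.
Myl7 (chr11:5898783-5899032, minus strand): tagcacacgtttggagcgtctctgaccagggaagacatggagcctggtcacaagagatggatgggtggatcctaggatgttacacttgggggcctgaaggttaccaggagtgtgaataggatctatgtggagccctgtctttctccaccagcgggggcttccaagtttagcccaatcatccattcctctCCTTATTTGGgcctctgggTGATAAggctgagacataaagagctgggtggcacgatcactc
Myl4 (chr11:104550413-104550662, plus strand): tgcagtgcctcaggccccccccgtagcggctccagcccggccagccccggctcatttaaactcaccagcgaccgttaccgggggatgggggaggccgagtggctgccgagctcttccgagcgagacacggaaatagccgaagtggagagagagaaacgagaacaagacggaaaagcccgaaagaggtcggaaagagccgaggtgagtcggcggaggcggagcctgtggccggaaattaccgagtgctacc
Bmp10 (chr6:87428744-87428993, plus strand): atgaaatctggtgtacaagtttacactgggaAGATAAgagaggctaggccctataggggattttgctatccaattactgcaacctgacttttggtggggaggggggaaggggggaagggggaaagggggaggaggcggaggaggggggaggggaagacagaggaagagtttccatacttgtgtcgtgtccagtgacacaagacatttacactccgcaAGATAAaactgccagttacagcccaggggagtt
Mybphl (chr3:108364661-108364910, plus strand): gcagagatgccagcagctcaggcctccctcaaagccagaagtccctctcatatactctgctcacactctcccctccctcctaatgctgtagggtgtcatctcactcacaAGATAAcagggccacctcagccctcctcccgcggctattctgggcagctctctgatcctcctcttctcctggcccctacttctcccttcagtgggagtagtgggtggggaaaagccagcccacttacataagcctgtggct

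Motifs searched were a GATA site (as AGATAA, with G at its end as AGATAG, with T at its start as TGATAA, or with both changes as TGATAG), a T-box site (AGGTGT), an NKX2-5 site (TNAAGTG), the CArG box bound by serum response factor, and the MEF2 consensus. The Myl7 window held a CArG box whose first base lay 61 bases before the start and a GATA match 42 bases before it. The Bmp10 window held GATA matches 219 and 33 bases before its start, and the Mybphl window held 1 at 141 bases. The Myl4 window matched none of the 5 motifs. Of 32851 promoter windows of the same length, 26.5% held a GATA match, 11.8% a T-box match, 10.1% an NKX2-5 match, 1.47% a CArG box and 2.92% a MEF2 match. A match describes letters in this window and is not evidence of a bound site.

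The members fell into 3 patterns across the 10 hearts. Myl7, Sln and Myl4 were high in the single library iSOD2 10. Bmp10 was at or near 0 in every library, and Dkk3 was present in all libraries with no single one standing apart. The plot of levels by library shows these patterns side by side.

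**Figure D1:**
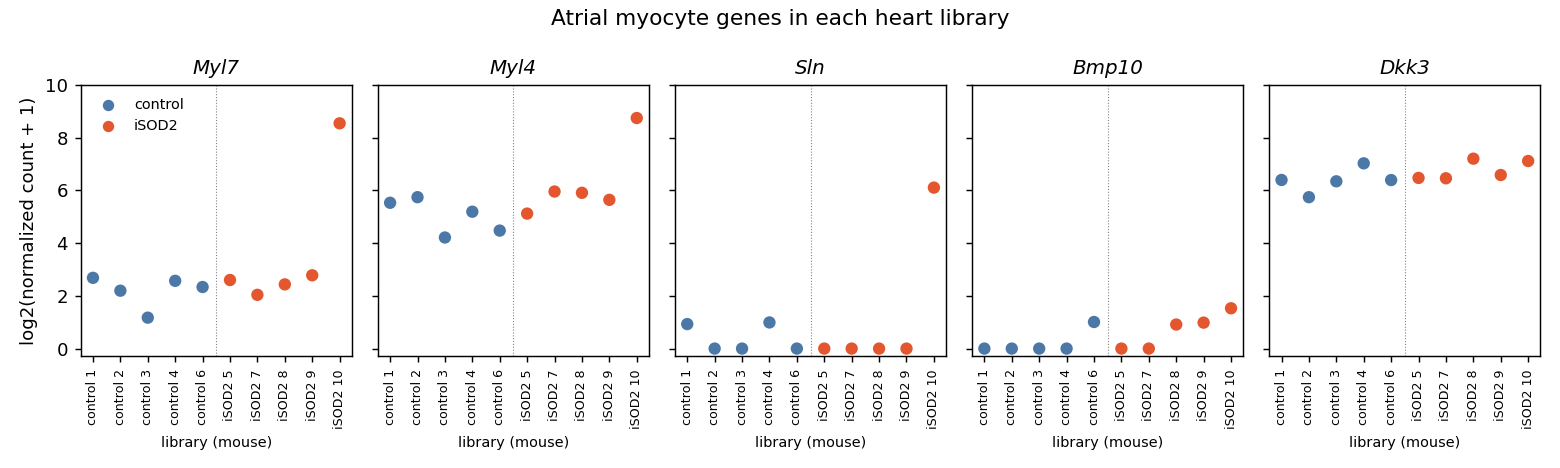
Log2(normalized count + 1) of the 5 genes in each of the 10 libraries, with 1 point for each mouse, controls in blue and iSOD2 mice in red. Myl7, Myl4 and Sln are far above the other libraries in iSOD2 10, Bmp10 lies near 0 throughout, and Dkk3 lies in 1 band from 52.5 to 146 normalized counts.

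Myl7, the atrial regulatory light chain, had 5.43, 3.58, 1.25, 4.94 and 4.05 normalized counts in the control hearts 1, 2, 3, 4 and 6. In iSOD2 mice 5, 7, 8 and 9 it had 5.07, 3.11, 4.41 and 5.87 normalized counts. In iSOD2 10 it had 372, from a deposited count of 395. The 9 other libraries overlapped across genotypes and rested on 1 to 6.5 deposited counts each, and iSOD2 10 was 84.4 times their median and 63.4 times the highest of them.

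Sln, the atrial SERCA inhibitor, was read in 3 libraries. It had 72.5 deposited counts in iSOD2 10, or 67.9 normalized, and 1 count each in control 1 and control 4. The other 7 libraries had 0 counts, which allows up to 0.124 to 0.182 counts per 1000000 in a library when a count of 0 is taken to allow 3. That limit covers counting error only. Among iSOD2 mice, 4 of 5 had no Sln read.

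Myl4, the atrial essential light chain, had 45.2, 52.5, 17.6, 35.6 and 21.2 normalized counts in the control hearts 1, 2, 3, 4 and 6. In iSOD2 mice 5, 7, 8 and 9 it had 33.8, 61.1, 59.1 and 48.9 normalized counts, and in iSOD2 10 it had 428. The next library, iSOD2 7, was far below that value. Control 3 and control 6 were the lowest, and the genotypes overlapped. An antisense gene and 3 other annotated transcripts lie within Myl4 on the opposite strand, and counting stated no strand option, so reads of these cannot be told apart from those of Myl4. None of the other 4 members overlapped another annotated gene.

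Bmp10, the secreted atrial ligand, had 2 deposited counts in iSOD2 10, 1 each in control 6, iSOD2 8 and iSOD2 9, and 0.5 each in control 3 and control 4. The other 4 libraries had 0. Summed over the libraries it stayed under the minimum of 10 counts for the fit, so no fold change was estimated, and a higher level in iSOD2 10 was not detectable at this depth.

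Dkk3, the secreted dickkopf family member, had 83.2, 52.5, 80.2, 129 and 83.0 normalized counts in the control hearts 1, 2, 3, 4 and 6. In iSOD2 mice 5, 7, 8, 9 and 10 it had 87.8, 87.0, 146, 94.9 and 138 normalized counts. The 3 highest libraries were iSOD2 8, iSOD2 10 and control 4, and the lowest was control 2. Here iSOD2 10 was 0.940 times the highest other library, so Dkk3 did not share the pattern of the light chains.

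Per kilobase of exon, the median level over 10 libraries ran from Myl4 (54.0 normalized counts per kb) through Dkk3 (26.1) to Myl7 (8.04), with Sln and Bmp10 at 0. Myl4 and Dkk3 overlapped in level per kb, since Myl4 went down to 20.1 and Dkk3 up to 43.7. In iSOD2 10 the order per kb was Myl7 (641), Myl4 (491), Sln (132), Dkk3 (41.1) and Bmp10 (1.43). Levels per kb use the exon length given in the deposited table, which for Sln (516 bp) and Bmp10 (1321 bp) is shorter than in GENCODE (1318 and 4490 bp).

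Each myosin light chain and sarcolipin was next set against its ventricular or general cardiac counterpart within the same library, which needs no scaling between libraries. Per kb, Myl7 was 0.302% of Myl2 in iSOD2 10 and 0.00110% to 0.00447% in the other 9 libraries. Myl4 was 0.654% of Myl3 in iSOD2 10 and 0.0293% to 0.0824% elsewhere. Sln was 0.401% of Pln in iSOD2 10 and 0% to 0.00563% elsewhere. The counterparts themselves lay within the range of the other hearts in iSOD2 10, with Myl2 at 132453 normalized counts, Myl3 at 66691 and Pln at 81125. Even in that heart the atrial versions were under 1% of their counterparts. In bulk tissue, fewer cells of a type and less RNA per cell cannot be told apart.

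**Figure D2:**
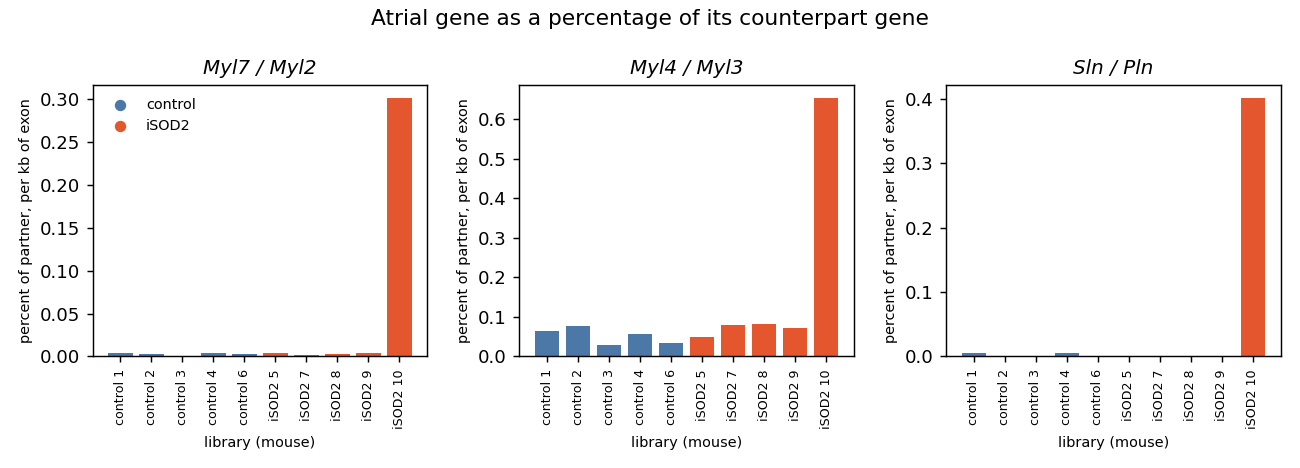
Myl7, Myl4 and Sln as a percentage of Myl2, Myl3 and Pln, per kb of exon, in each library (controls blue, iSOD2 red, bars from 0, each panel with its own scale). The bar of iSOD2 10 reaches 0.302%, 0.654% and 0.401%, and no other bar passes 0.0824%.

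Reads of the abundant ventricular light chains could in principle be counted for the atrial ones if the transcripts shared sequence. None of the 31-base stretches of the 5 members' GENCODE transcripts (560 in Myl7, 849 in Myl4, 1288 in Sln, 4460 in Bmp10 and 3329 in Dkk3) occurred in a transcript of another gene, on either strand. Only exact matches to annotated transcripts were searched. Reads placed with mismatches, or from copies that are not annotated, were not tested.

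The light chains and sarcolipin had high correlations across the 10 libraries, which rested on iSOD2 10. On log2(normalized count + 1), Pearson's r over 10 libraries was 0.97 between Myl7 and Sln, 0.91 between Myl7 and Myl4 and 0.87 between Myl4 and Sln. Without iSOD2 10 these were 0.36, 0.51 and 0.04 over 9 libraries. By rank (Spearman's rho) the same pairs had 0.59, 0.30 and 0.26 over 10 libraries. Dkk3 had r of 0.48 with Myl7, 0.44 with Myl4 and 0.48 with Sln, and 0.30, 0.13 and 0.28 without that library. These correlations describe the libraries, whose points share each library's depth and scaling. The members were picked in part for variation between single libraries, so the high values follow from that choice and are no test.

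Of 17728 genes that passed the count filter, iSOD2 10 was the highest library for 10.8%, and for 19 genes (0.107%) it was at least 2-fold above every other library on the scale of normalized count + 1. Ordered by that ratio the first 4 were Myl7 (54.3), Sln (34.6), Mybphl (10.1) and Myl4 (6.90), followed by Msln (2.99). The other libraries had 1 to 13 such genes each. In control 6 these were led by Bpifa1 (27.3), a secreted protein of airway epithelium, so a gene high in 1 heart alone was seen elsewhere too. The members were chosen for this kind of variation, so their place at the head of the order is not evidence of anything further.

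Other genes used as atrial markers were examined to see whether they followed the same heart. Of 15, all passed the filter, and 2 were highest in iSOD2 10. Mybphl had 57.5 normalized counts there and 0 to 4.77 elsewhere. Stard10, a lipid transfer protein gene, had 398 there and 221 to 374 elsewhere. Nppa, which encodes the atrial natriuretic peptide, had its highest level in a different heart, iSOD2 8, with 7592 normalized counts, against 498 to 2071 in the other 9, with 1880 in iSOD2 10. In iSOD2 8 Myl7 was at 4.41 normalized counts and Sln at 0, so the hearts that were high for Nppa and for Myl7 were not the same. The potassium channel genes Kcnj3 and Kcnj5, which carry the acetylcholine-activated current of atrial myocytes, had 1995 and 1761 normalized counts in iSOD2 10. The other 9 libraries had 1979 to 2559 and 1788 to 2323. Both genes were thus abundant in hearts with almost no Myl7 or Sln, so they cannot show whether a small amount of atrial RNA was present in iSOD2 10.

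Markers of the mesothelium and of hepatocytes were often highest in iSOD2 10, which was the highest library for 10.8% of 17728 genes. In the sinoatrial and conduction list 2 of 7 genes that passed the filter were highest there, and 1 of 5 in each of the ventricular and smooth muscle lists. In the general cardiomyocyte, skeletal muscle, fibroblast, endothelial, cardiac neuron, lung epithelial, thymocyte and fat marker lists, 0 genes were highest there. Those lists held only 2 to 9 genes that passed the filter, so 0 says little beside the 10.8%. Of 5 genes of the mesothelium, the cell layer that covers the heart, 4 were highest in that library. Msln had 64.1 normalized counts there and at most 20.8 elsewhere, Upk3b had 66.0 and at most 39.8, and Lrrn4 had 37.7 and at most 18.99, control 1 being the next heart for all 3. Wt1, also of this layer, was not highest there. The summed mesothelial level was 110 to 172 in controls and 103 to 295 in iSOD2 hearts, with 295 in iSOD2 10. Of 8 hepatocyte genes, 7 were highest in iSOD2 10, and their sum was 223 to 9350 in controls and 4559 to 19321 in iSOD2 hearts, with 19321 in iSOD2 10. Of the hepatocyte genes, Alb was 1.67 times the highest other library and Apoa2 1.05 times, against 63.4 times for Myl7. Alb ranged over 47.9 to 8766 normalized counts in the other libraries. None of these mesothelial and hepatocyte markers was at 0 in iSOD2 10. Their part in the level of the atrial genes was not tested.

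**Figure D3:**
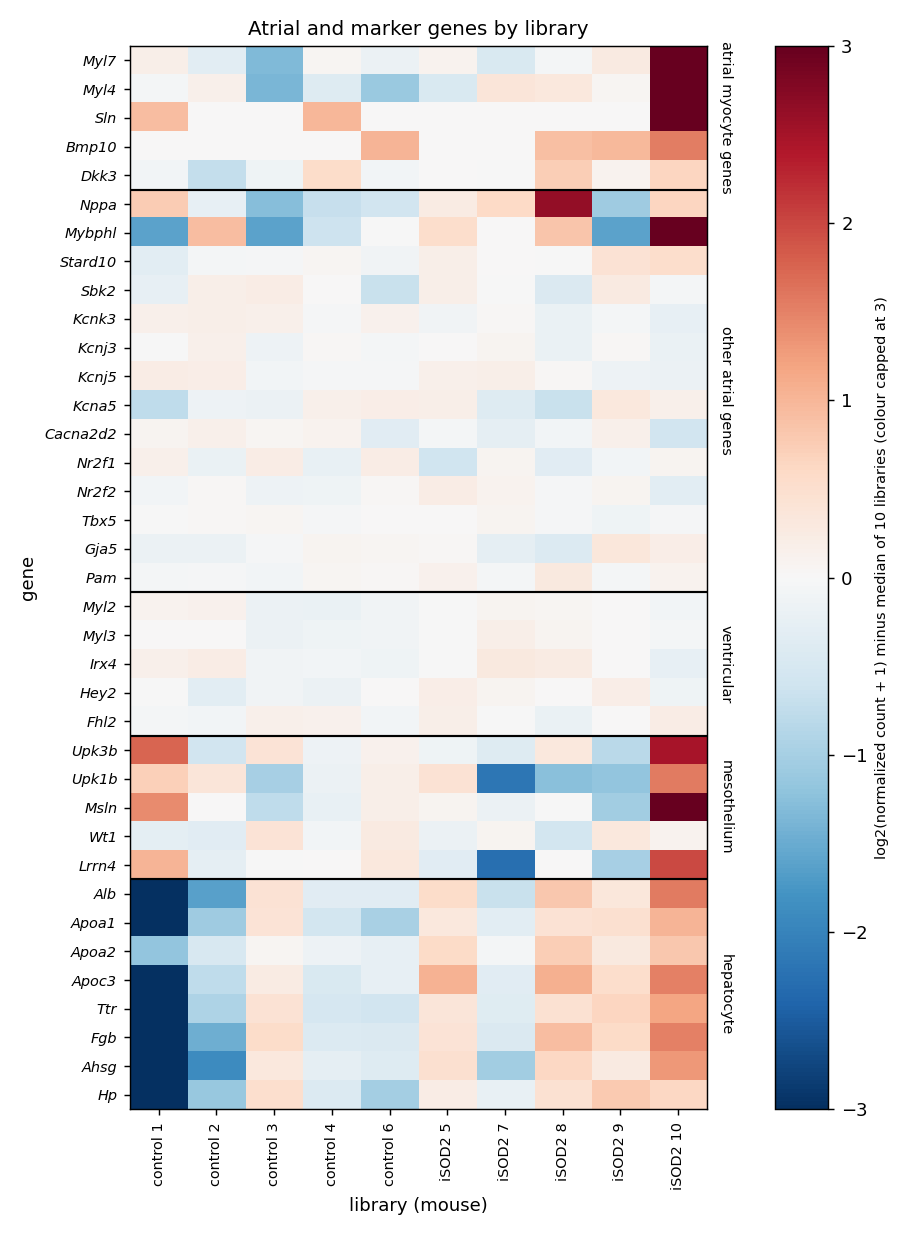
Log2(normalized count + 1) minus the median of the 10 libraries, for the 5 atrial myocyte genes, other atrial genes and the ventricular, mesothelial and hepatocyte lists (rows) in each library (columns), red above and blue below the median, capped at 3. The last column, iSOD2 10, is deep red for Myl7, Myl4, Sln, Mybphl and Msln, while Nppa is reddest in iSOD2 8 and ventricular genes are pale throughout.

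The genotypes were then compared, the question of the study being what a transient loss of SOD2 before birth leaves in the adult heart. Calls needed a DESeq2 p of at most 0.05 after Benjamini-Hochberg adjustment, together with a log2 fold change beyond 0.25 in either direction. Of the 5 members, 4 passed the count filter, and DESeq2's default filters left 0 of them with an adjusted p, so none could be called and nothing is read from that. Across all genes 2.96% of the 9479 genes with an adjusted p were called, 120 higher (1.27%) and 161 lower (1.7%) in iSOD2 hearts. Without iSOD2 10 the members again had no adjusted p, while 2.38% of 9066 genes were called. No member separated the genotypes without overlap, which 3.75% of the 17728 genes did. The p-values set each difference against the spread between these mice, in a fit without sex or litter.

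The mean of Myl7 was 3.85 ± 1.62 normalized counts for controls against 78.2 ± 164 for iSOD2 mice (SD, n = 5 each), and the iSOD2 mean without iSOD2 10 was 4.61 ± 1.17 (SD, n = 4). Its fitted log2 fold change was 4.34 (SE 1.35), and 0.23 (SE 0.65) without iSOD2 10. With sex and litter as covariates it was 2.63 (SE 1.38), again with no adjusted p. DESeq2 gave it no p because the gene held a count outlier by Cook's distance. Within males the log2 fold change was 0.37, within females 4.82, within litter A −0.26 and within litter B 5.21, and iSOD2 10 was a female of litter B. The large values thus came from the strata that held that mouse.

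The mean of Myl4 was 34.4 ± 15.0 normalized counts for controls against 126 ± 169 for iSOD2 mice (SD, n = 5 each), and 50.7 ± 12.5 without iSOD2 10 (SD, n = 4). The log2 fold change was 1.87 (SE 0.75), again with no p, and 0.55 (SE 0.32) without iSOD2 10. Within males it was 0.51, within females 2.61, within litter A 0.30 and within litter B 2.78. Every one of these was above 0, and each had an adjusted p above 0.05 or none.

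Sln had a fitted log2 fold change of 4.96 (SE 3.03), no p, and fell under the count filter without iSOD2 10. With sex and litter as covariates it was 1.69 (SE 3.09), with no adjusted p. With so few libraries above 0 that fitted value depends on the model's handling of zeros and is no bound. Its mean was 0.378 ± 0.519 normalized counts for controls against 13.6 ± 30.4 for iSOD2 mice (SD, n = 5 each), and 0 in the 4 iSOD2 hearts without iSOD2 10.

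The mean of Dkk3 was 85.7 ± 27.6 normalized counts for controls against 111 ± 28.9 for iSOD2 mice (SD, n = 5 each). Its log2 fold change was 0.37 (SE 0.23), and DESeq2's filter on low means left it without an adjusted p. Leaving out control 4, the highest control, gave 0.56, and leaving out iSOD2 10 gave 0.28. Within litter A it was 0.78, within litter B 0.12, within males 0.33 and within females 0.22. Litter A had only male controls, while its highest heart, iSOD2 8 (146 normalized counts), was female, so genotype and sex cannot be told apart in that value.

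**Figure D4:**
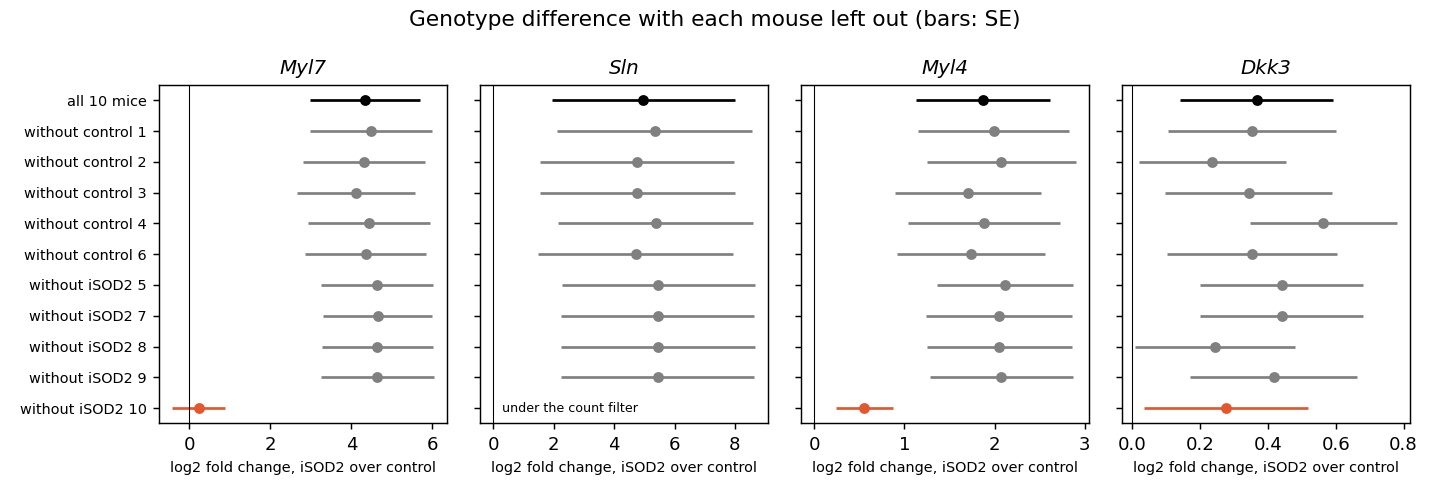
Log2 fold change of iSOD2 over control from DESeq2 for Myl7, Sln, Myl4 and Dkk3, with all 10 mice (black) and with each mouse left out in turn (grey, iSOD2 10 in red), bars giving the SE. Myl7 goes from 4.34 to 0.23 and Myl4 from 1.87 to 0.55 without iSOD2 10, Sln then falls under the count filter, and Dkk3 stays between 0.24 and 0.56.

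The rule that removed the p-values acted on few genes. It applied to 7 of 17728 genes (0.0395%), of which Myl7, Myl4, Sln, Mybphl and Msln were highest in iSOD2 10, Bpifa1 in control 6 and Trim43b in iSOD2 8. With that rule and the filter on low means both switched off, Myl7 passed the threshold (adjusted p 0.0498), while Myl4 (0.184), Sln (0.524) and Dkk3 (0.527) did not. This fit was added after seeing the data, and Myl7 was picked in part for its variation between libraries. Its value rests on iSOD2 10 (372 normalized counts, at most 5.87 elsewhere), so the pass is not read as a genotype difference. In that fit 1.52% of 17728 genes were called. By edgeR's quasi-likelihood test the adjusted p was 0.194 for Myl7, 0.214 for Myl4, 0.279 for Sln and 0.476 for Dkk3. That test called 0 of 17728 genes, with a lowest adjusted p of 0.0664 and 2718 genes at an unadjusted p under 0.05.

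Females and males were compared with genotype as a covariate. Dkk3 had 117 ± 29.4 normalized counts in females and 79.6 ± 16.1 in males (SD, n = 5 each), a log2 difference of 0.50 (SE 0.20, DESeq2 adjusted p 0.439). Only Dkk3 and Myl4 had an adjusted p here, and neither was called, against 0.42% of 17379 genes. Myl4 was at 0.62 (SE 0.78) and at −0.35 without iSOD2 10. Myl7 (2.65) and Sln (4.45) again had no p, and without iSOD2 10 the value for Myl7 was 0.22.

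Between litters, the value of Myl4 changed its sign without iSOD2 10. With genotype as a covariate, its log2 difference of litter B over litter A was 0.17 (SE 0.80), and −0.75 (SE 0.26, DESeq2 adjusted p 0.0961) without that library. It was −0.21 without iSOD2 7 and −0.22 without iSOD2 8, both of litter A. In litter A its 4 hearts lay between 45.2 and 61.1 normalized counts. The 5 hearts of litter B other than iSOD2 10 lay between 17.6 and 48.9, which overlaps litter A only through iSOD2 9. The value for Dkk3 was 0.17 (SE 0.22, DESeq2 adjusted p 0.830), and Myl7 (1.86), Sln (2.74) and, with all mice, Myl4 had no p. Dkk3 was thus the only member that could be called, and it was not, so nothing is read of the others. Among all genes 3.5% of 15654 were called. Without iSOD2 10 only Myl4 and Dkk3 had an adjusted p, and neither was called, against 2.44% of 15204 genes.

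The genotype-by-sex interaction, which asks whether the genotype difference itself differs between sexes, was called for 0 members and 0 of 17725 genes by DESeq2 (210 at an unadjusted p under 0.05), and for 0 genes by edgeR (487 at an unadjusted p under 0.05). Of the members, only Dkk3 and Myl4 had an adjusted p by DESeq2. For Dkk3 the interaction was −0.11 (SE 0.43) on the log2 scale, and above 0 without control 2 (0.07), control 4 (0.24) or iSOD2 5 (0.09).

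Genes of families or pathways related to the members were counted in lists, to be read beside the 2.96% of 9479 genes that were called. Whether the genes of a list act with a member was not tested. In lists this short, 0 or 1 called gene is no result about the list. Among 15 genes of BMP10 signalling (the related ligand Gdf2, receptors, SMADs and ID targets), 12 had an adjusted p, 1 was called higher and 0 lower, and the median log2 fold change was 0.02, beside −0.00 over all genes fitted. The called gene, Id3, a target of BMP signalling, averaged 342 ± 68.2 normalized counts for controls against 458 ± 75.3 for iSOD2 mice (SD, n = 5 each), and its log2 fold change was 0.42 (DESeq2 adjusted p 0.0466). It lost the call without iSOD2 10 (0.38, adjusted p 0.134) and without 6 of the other 9 mice. Smad6, an inhibitor of the pathway, was at 0.31 (adjusted p 0.105) and was called without iSOD2 9 (0.39, adjusted p 0.0254). Bmp10 itself was near 0 in these hearts, so the list says nothing of its ligand.

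Among 10 genes of dickkopf and WNT signalling, 7 passed the filter, 3 had an adjusted p and 0 were called, with a median log2 fold change of −0.07. Beside the 2.96% of 9479 genes called, 0 in this and the next short lists is no result about them. Kremen1, a dickkopf receptor, was at −0.21 (DESeq2 adjusted p 0.00292), and Lrp5, a WNT co-receptor, at −0.21 (adjusted p 0.0230), both within the fold change limit. Of 8 SERCA genes and regulators, 7 were in the table, 5 had an adjusted p and 0 were called (median −0.05), and of 10 other myosin light chain and related genes 8 had one and 0 were called (median 0.11). The other atrial list had 10 of 15 genes with an adjusted p, 0 called and a median of 0.05. There, Mybphl was at 3.13 with no p, Nppa at 1.37 (adjusted p 0.226) and Stard10 at 0.33 (adjusted p 0.0775). Stard10 was called without iSOD2 7 (0.39) or iSOD2 8 (0.39) and with litter (adjusted p 0.0259) or sex and litter (adjusted p 0.0453) as covariates, and was at 0.24 (adjusted p 0.446) with the trend with exon length removed. Kcnk3, a background potassium channel gene chosen here after its values were seen, was at −0.22 (adjusted p 0.0173), within the fold change limit. Its adjusted p ran from 0.00157 without control 4 to 0.0974 without control 3 as mice were left out in turn, its log2 fold change passed the limit without control 4 (−0.26) or iSOD2 7 (−0.26), and by edgeR its adjusted p was 0.120. The median of this list was below 0 without control 1, iSOD2 9 or iSOD2 10 (lowest −0.0096).

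Among genes with an adjusted p, none was called in the ventricular (4 of 5 with one), sinoatrial and conduction (4 of 9), general cardiomyocyte (9 of 9), endothelial (4 of 4) or fat (1 of 4) lists. Of all 9479 genes with an adjusted p, 2.96% were called, so 0 in lists of this size says nothing of those cell types. The skeletal muscle (9), mesothelial (5), cardiac neuron (6), lung epithelial (4) and thymocyte (4) lists held 0 genes with an adjusted p, so none of theirs could be called. In the smooth muscle list (5) Tagln (0.40, DESeq2 adjusted p 0.00361) and Myh11 (0.28, adjusted p 0.0491) were called higher. That list was mixed, with 3 genes above 0 and 2 below, Acta2 (−0.07) and Smtn (−0.11), and a median of 0.07. In the hepatocyte list (8) Apoa2 (0.85, adjusted p 0.00246) was called higher, and all 8 genes were above 0. In the fibroblast list (5) Col1a1 (−0.55, adjusted p 8.6e-05), whose locus carries the hairpin, was called lower. The fibroblast list too was mixed, with 3 genes above 0 and 2 below (median 0.07), so these calls are read for single genes and not for cell types. Apoa2 lost its call without control 2 (adjusted p 0.0882), and Myh11 without any 1 of 8 mice (adjusted p 0.0694 to 0.234). The calls of Tagln and Col1a1 did not change when any mouse was left out.

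Genes whose pattern was most like the mean of the members, among those whose mean normalized count reached 50, were ranked by Pearson's r with the mean z-score of the 5 members over 10 libraries. The 10 with the highest r were Tmem147 (0.92), Otub1 (0.91), Fez2 (0.90), Prdx6 (0.88), Ifi30 (0.88), Bsg (0.88), Mrpl15 (0.87), Usb1 (0.86), Tst (0.86) and Lztfl1 (0.85). Without iSOD2 10 their r over 9 libraries ran from 0.32 to 0.82. That mean z-score was 2.22 in iSOD2 10 and at most 0.353 elsewhere, so the ranking mostly follows that library. The highest r values were picked from many genes and carry no test. None of the 10 had the size of the change in the light chains, since iSOD2 10 was 1.06 to 1.19 times the highest other library for them. The cut at a mean of 50 left out Mybphl (mean 7.51) and Msln (mean 13.4).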

How the data were processed

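RNA depleted of ribosomal RNA was sequenced from 10 mouse hearts. The authors trimmed reads with Trim Galore, aligned them to GRCm38 (mm10) with STAR and counted them over the exons of 1 transcript per gene with HOMER. The deposited values are estimated counts in steps of 0.5, not normalized, and the deposited table also gives an exon length in base pairs. Groups, sex and litter came from the sample labels. Libraries held 16.4 to 24.3 units of 1000000 counts, and no pair was a copy (lowest of 45 chi-square values per degree of freedom 6.03).

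Counts were rounded to whole numbers, so a value of 0.5 became 0, and genes with under 10 summed counts were left out. The main comparison of genotypes was a DESeq2 (version 1.42.0, R 4.3.3) Wald test with default filters. The study's methods name DESeq2 and the count minimum, and not the test or those filters. Alternatives were edgeR 4.0.16 (quasi-likelihood, TMM), other filters and scalings, covariates, strata and leaving out each mouse. DESeq2 without its filters was added after seeing the data. Models were tested on simulated data. Locations came from GENCODE M21, and figures from Python 3.11.15. The members, lists and tests were chosen with earlier results of these data known. Named genes were the members, called genes of each list with up to 4 of the largest log2 fold change, and the 10 genes most like the members. A gene of the other atrial list is counted with its list and not reported here by name. Genes given only by level were chosen after their values were seen.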

Additional observations from a re-analysis of the deposited data

Results flagged for a closer look

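Single libraries far from the others of their genotype were looked for in 10 genes and 2 genotypes, 20 groups of 5 libraries, most of them genes chosen for such values. By Dixon's ratio, with a critical value of 0.71 for 5 libraries, 11 values stood apart. About 1 in 20 groups does so by chance, but the genes were picked for such values and a group otherwise at 0 gives the highest ratio by construction, so the count describes the choice and is no test. In iSOD2 10 these were Myl7 (372 normalized counts, next iSOD2 heart 5.87), Myl4 (428, next 61.1), Sln (67.9, next 0), Mybphl (57.5, next 4.41), Msln (64.1, next 7.60), Upk3b (66.0, next 14.1) and Lrrn4 (37.7, next 8.82).

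In iSOD2 8 Nppa stood apart with 7592 normalized counts, the next iSOD2 heart being iSOD2 10 with 1880. Among controls, control 1 stood apart for Msln (20.8, next 8.09) and Upk3b (39.8, next 15.0). In control 1 Sln had 1 count, Myl7 5.43 normalized counts and Myl4 45.2. Control 6 stood apart for Bmp10 with 1.01 normalized counts, which is a single count where the other controls had 0 after rounding.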

How the results depend on the processing

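Across the alternatives run, 0 of the members were called between genotypes (in most DESeq2 fits they had no adjusted p) except without DESeq2's 2 filters, where 1 was (Myl7, log2 fold change 4.34, adjusted p 0.0498). That fit was added after seeing the data, and the value of Myl7 in it rests on iSOD2 10. Leaving out each mouse gave 0.23 to 4.64 for Myl7, 0.55 to 2.12 for Myl4 and 0.24 to 0.56 for Dkk3, with the lowest value without iSOD2 10 for Myl7 and Myl4. Sln could not be fitted without iSOD2 10. With sex and litter as covariates the genotype difference was 2.63 for Myl7, 1.69 for Sln, 1.60 for Myl4 and 0.27 for Dkk3, with sex alone 2.65, 1.72, 1.56 and 0.27, and with litter alone 3.34, 3.64, 1.81 and 0.38, and the cause was not tested. In litter A alone Myl7 was at −0.26. Between sexes, leaving out each mouse gave −0.35 (without iSOD2 10) to 1.05 for Myl4. Between litters it gave −0.75 (without iSOD2 10) to 0.45 for Myl4, and with genotype, sex and litter together Myl4 was at −0.33 and Dkk3 at −0.023. For the genotype-by-sex interaction it gave −0.29 (without iSOD2 10) to 5.02 for Myl7 and −0.40 to 0.24 for Dkk3. The cause of these changes other than the mouse left out was not tested.

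The 281 calls between genotypes became 0 with edgeR, 133 with the trend with exon length removed, 150 in males, 90 in females, 121 in litter A and 63 in litter B, and 166 to 492 when each mouse was left out (166 without control 2, 179 without control 3, 492 without control 4). Calls between sexes went from 73 to 29 with edgeR and to 41 to 146 when each mouse was left out (46 without control 2, 146 without control 3, 44 without control 4, 41 without iSOD2 7), and between litters from 548 to 365 with edgeR and to 300 without control 1. The median of the other atrial genes ran from −0.0096 to 0.073 when each mouse was left out. Myl7 and Sln rest on at most 6.5 counts outside iSOD2 10, and Bmp10 on at most 2 in any heart, so differences among the other hearts were not detectable at this depth. The labels match no control to a single iSOD2 mouse. Both genotypes were in litter A and in litter B, and the fits with litter as a covariate compared them within litters.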
